A study of Homo sapiens with 6 samples.

Results

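The genes described here are 33 genes of nuclear transport, of 60671 genes in the deposited tables. They are TNPO1 with its paralogs TNPO2 and TNPO3, 8 other importins of the beta family, 7 importins alpha, 8 exportins and 7 genes of the Ran cycle. They were gathered by symbol and gene identifier around TNPO1, which was picked because its values differed between the conditions compared here. Values of that comparison are therefore a description of the members, and members past a threshold are only counted, beside the share of all genes. In all, 31 of the 33 genes passed the filter on low counts that left 15663 genes.

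Proteins and many RNAs pass the nuclear pore bound to karyopherins, carriers that recognise a signal in their cargo. Importin beta (KPNB1) mostly takes its cargo through an adaptor, an importin alpha, whereas transportin 1 (TNPO1) binds directly to the proline-tyrosine signal of cargoes such as hnRNP A1. The direction of transport is set by the small GTPase Ran, which is charged with GTP on chromatin by RCC1 and made to hydrolyse it in the cytoplasm by RANGAP1: nuclear Ran-GTP empties importins and fills exportins. FOXL2 itself is a forkhead transcription factor of granulosa cells, the somatic cells that surround the oocyte, and as a nuclear protein it depends on import.

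The study mainly tested in vitro which RNA sequences FOXL2 binds, and found them rich in G doublets. It then depleted FOXL2 in cells and asked whether the genes that changed carry G-rich sequences. For this it used a published list of transcripts whose G-rich regions can fold in vitro. The cells were KGN, a cell line from a human granulosa cell tumour, edited with CRISPR to FOXL2 WT/WT, so that all 6 libraries share that genotype and the editing. FOXL2 siRNA cells (3 libraries) received 30 pmol of a pool of 3 siRNAs against FOXL2, and control siRNA cells (3 libraries) an equal amount of a scrambled siRNA. RNA was extracted 30 h after transfection and sequenced as stranded mRNA libraries. The pools were drawn from 4 siRNAs: 1 was common to all, and a different one was missing from each, so that pools 2 and 3 share the siRNA that pool 1 lacked. The FOXL2 siRNA libraries are thus replicates of the knock-down (KD) but not of 1 siRNA mixture. The labels do not say whether the libraries of a condition came from separate cultures, so the errors measure only the spread between these samples.

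The total of the expected counts lay between 23843192 and 28791954 per library. FOXL2 was at 9.88, 9.71 and 10.8 CPM (counts scaled to the library size and normalised by TMM) with control siRNA and at 2.64, 3.31 and 2.36 CPM with FOXL2 siRNA, a log2 fold change of -1.88 (SE 0.142, edgeR adjusted p = 0.00267). FOXL2 siRNA replicate 2 stood apart from the other libraries: on the first principal component, which held 31.2% of the variance, it scored 40.9, and the others lay between -17.2 and -0.0247. Of 12 granulosa cell markers, 6 passed the filter. FSHR and WT1 had no count, and CYP19A1, INHA, AMHR2 and GATA4 held at most 3, 5, 1 and 1 counts in any library. The summed level of the list was 192 to 207 CPM with control siRNA and 170 to 192 CPM with FOXL2 siRNA. Part of this sum is the siRNA target FOXL2, the only marker of the 6 that edgeR or DESeq2 called or that did not overlap. Of the 6, 3 had a log2 fold change above 0 and 3, FOXL2 among them, below 0 (48.6% of all genes). Of 10 markers of other cell types, 5 passed, the germ cell marker DDX4 had no count, and the summed level was 232 to 287 CPM and 283 to 332 CPM, of which the actin gene ACTA2 made up most. In the latter list, 1 of the 5 tested genes, ACTA2, did not overlap on the higher side, beside 9.97% of all genes. On the lower side there was 1, the macrophage marker CD68, beside 10.6%. No gene of that list was called by edgeR, and DESeq2 called 1, ACTA2, which was higher (3.00% of its genes). The part of either list in the values of the members was not tested.

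G-rich stretches of the members are shown because the study's question turns on them. A chain of GG doublets with 1 to 4 nucleotides between neighbours was sought for each gene. The search ran on the RNA-sense sequence of its longest GENCODE v29 transcript (GRCh38), where a run of 5 G counts as 2 doublets. This rule is looser than the study's consensus of 8 doublets, in which only the first gap may reach 4 nucleotides. Chains of at least 8 doublets were found in 5 of the 33 members, IPO9, KPNA4, TNPO2, XPO7 and XPOT, and in 19.3% of the 15530 tested genes with a transcript. The longest chain of TNPO1 had 5 doublets, a number that 69.2% of those genes reached. Stretches are shown for TNPO1, for its closest paralog TNPO2, for KPNB1 as the partner of the importins alpha, and for IPO9, KPNA4 and XPOT, which had long chains. Where a chain was longer than 30 nucleotides, the window of at most 30 with most doublets is printed. Capitals mark the G doublets of the chain.
TNPO1: GGaggGGcgGGagGGaGG
TNPO2: GGtgagGGaGGagcaGGtcaGGaGGgGG
KPNB1: GGtttGGgGGaGGaGGagGGactGG
IPO9: GGaGGaGGaagaGGaGGaGGaGGaGGatGG
KPNA4: GGttagGGcggGGgGGcgGGcggGGagaGG
XPOT: GGcGGcGGcGGctgcGGcGGcGGcGGcGG

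These stretches lie in different parts of their transcripts. That of TNPO1 (chr5:72908821-72908838, plus strand) is in the 3' UTR of the transcript of 11183 nucleotides, whose coding sequence spans positions 427 to 3123. Those of TNPO2 (chr19:12700888-12700915, minus strand) and KPNB1 (chr17:47682766-47682790, plus strand) are also in the 3' UTR. The stretch of IPO9 (chr1:201874860-201874889, plus strand) is coding. Those of KPNA4 (chr3:160565443-160565472, minus strand) and XPOT (chr12:64404469-64404497, plus strand) are in the 5' UTR. A chain is a match of letters and not a measured fold or a bound site, and the release of the annotation behind the deposited tables may not be v29.

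In control siRNA libraries, 31 of the 33 genes were expressed, over a range from 2.73 TPM for KPNA5 to 1401 TPM for RAN. TPM are scaled to transcript length as well as library size and allow levels of different genes to be compared. KPNA7, an importin alpha of oocytes and early embryos, and RANBP17, a relative of the exportins expressed mainly in testis, had no count in any of the 6 libraries. A count of 0 allows up to 3 counts in each of these libraries, by counting error alone.

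The genes of the Ran cycle led the order of levels. RAN was at 1382, 1407 and 1413 TPM with control siRNA (1401 ± 16.4, SD, n = 3), above every other member in every library. RANBP1, which binds Ran-GTP and assists its hydrolysis, followed at 425 ± 15.2 TPM. NUTF2, which carries Ran-GDP back into the nucleus, was at 222 ± 2.57 TPM and RANGAP1 at 150 ± 4.74 TPM. The exchange factor RCC1 (75.0 ± 4.82 TPM), the export cofactor RANBP3 (56.3 ± 1.80 TPM) and the pore protein RANBP2 (27.9 ± 1.69 TPM) were lower. RANBP2 has near-identical copies, the RGPD genes, of which RGPD6 held 830 to 1615 counts with control siRNA, so the division of reads among them is uncertain.

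Among the carriers, the classical import pathway was the most abundant. KPNA2, an importin alpha of dividing cells, was at 394 ± 11 TPM, KPNB1 at 358 ± 7.95 TPM and IPO5, a carrier of ribosomal proteins and histones, at 304 ± 13.5 TPM. The libraries of these genes, of RANBP1 and of NUTF2 did not overlap with those of their neighbours in the order. XPO1, the main exportin for proteins with leucine-rich signals, was at 166 ± 28.4 TPM and varied between 134 and 188 TPM, so that it overlapped with RANGAP1. XPOT, the exportin of tRNAs (138 ± 17.4 TPM), overlapped with RANGAP1 in turn. IPO7 (107 ± 8.95 TPM), CSE1L, which returns importins alpha to the cytoplasm (104 ± 11.5 TPM), XPO6, the exportin of actin (99.6 ± 7.35 TPM), and TNPO1 (90.6 ± 5.48 TPM) overlapped each with the next, and TNPO1 lay above RCC1 in every library.

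The other members ranged below TNPO1. IPO9, KPNA1 and TNPO2 formed 1 overlapping stretch between 65.7 and 67.6 TPM, and TNPO3, which imports SR splicing factors, RANBP3 and IPO4 formed another between 54.6 and 56.6 TPM. XPO7, IPO8, KPNA4 and KPNA3, between 36.6 and 40.0 TPM, overlapped too. XPO5, which exports precursors of microRNAs, was at 32.8 ± 1.31 TPM. IPO11 was at 23.5 ± 1.91 TPM, IPO13 and KPNA6 overlapped at 20.5 ± 0.791 and 20.1 ± 1.49 TPM, and the lowest were XPO4 at 9.65 ± 0.473 TPM and KPNA5 at 2.73 ± 0.271 TPM.

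**Figure D1:**
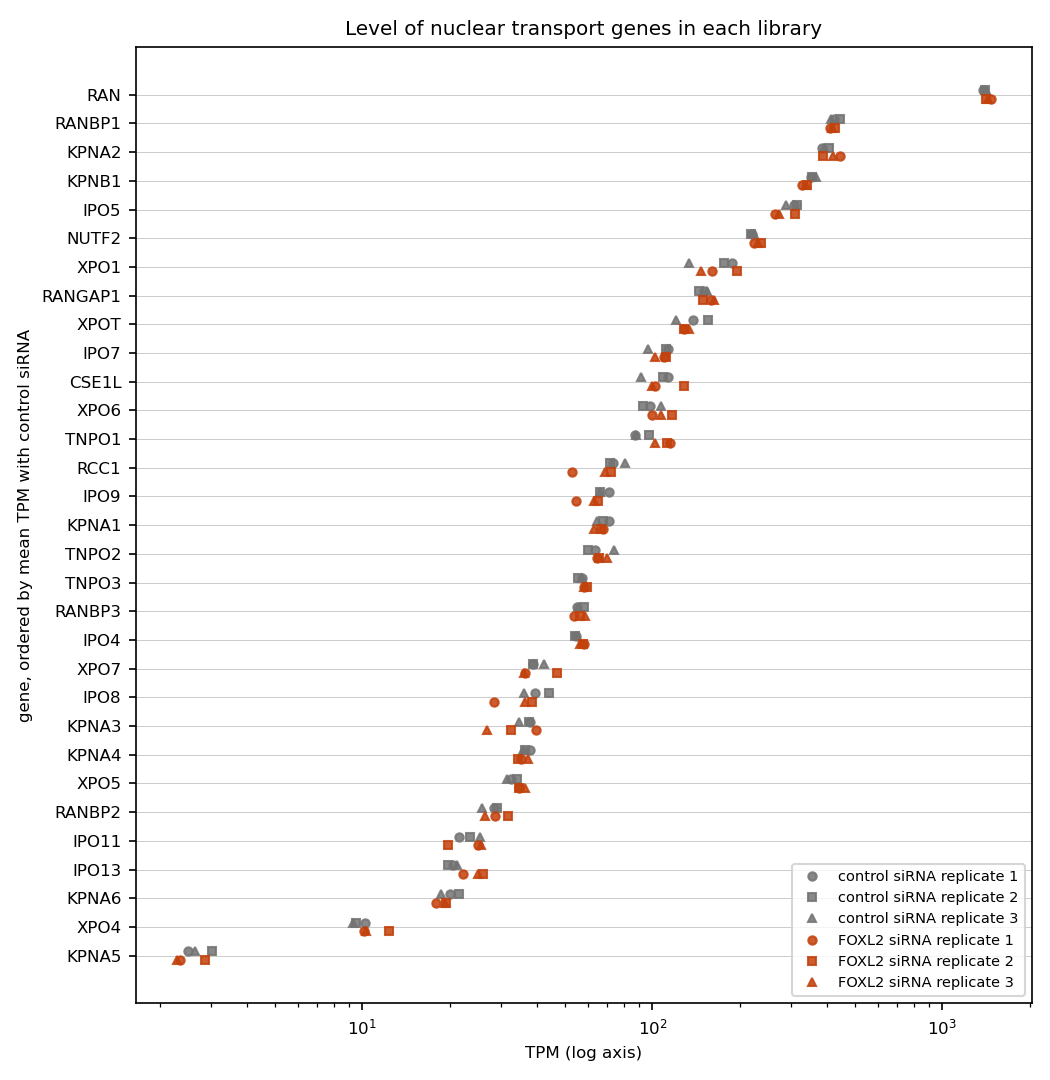
TPM (log axis) of the 31 nuclear transport genes with counts in each library, ordered by the mean with control siRNA; grey points are control siRNA and orange points FOXL2 siRNA libraries. Levels run from 2.73 TPM for KPNA5 to 1401 TPM for RAN, and TNPO1 (90.6 TPM) lies near the middle of the order.

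FOXL2 siRNA left most members close to their control level, and TNPO1 had the largest difference, 198 ± 9.04 CPM with control siRNA against 290 ± 47.9 CPM with FOXL2 siRNA. With edgeR, 0 of the 31 members passed an adjusted p of 0.05, where 0.255% of all genes tested did. At an unadjusted p under 0.05 there were 3 members (TNPO1, XPO4 and RCC1), beside 13.5% of all genes. DESeq2 called 1 member, TNPO1, beside 3.00% of its genes. Without FOXL2 siRNA replicate 2, edgeR called TNPO1 (beside 3.61% of genes), and DESeq2 called TNPO1, IPO5 and RCC1 (beside 6.47%). Since TNPO1 was picked for this comparison, these calls are not independent evidence about it.

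The differences of the members were small and of both signs. The log2 fold change was above 0 for 16 members and below 0 for 15, with a median of 0.002 beside 0.006 over all genes tested. Its absolute value was under 0.1 for 24 of the 31 members, beside 43.6% of all genes, and its median was 0.055 beside 0.119. The members were also more abundant than most genes, with a median of 142 CPM against 18.0 CPM, and the part of abundance in this difference was not tested. CPM did not overlap between the conditions for 5 members, beside 20.5% of all genes. TNPO1 and XPO4 were on the higher side (9.97% of all genes) and KPNB1, KPNA6 and RCC1 on the lower (10.6%). Without FOXL2 siRNA replicate 2 there were 12 such members, beside 35.3%: TNPO1, IPO13, KPNA2, XPO4 and XPO6 on the higher side (17.2% of all genes) and KPNB1, IPO5, IPO8, KPNA5, KPNA6, XPO7 and RCC1 on the lower (18.1%). In these bulk samples, fewer cells with an RNA and less of it in each cell cannot be told apart.

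**Figure D2:**
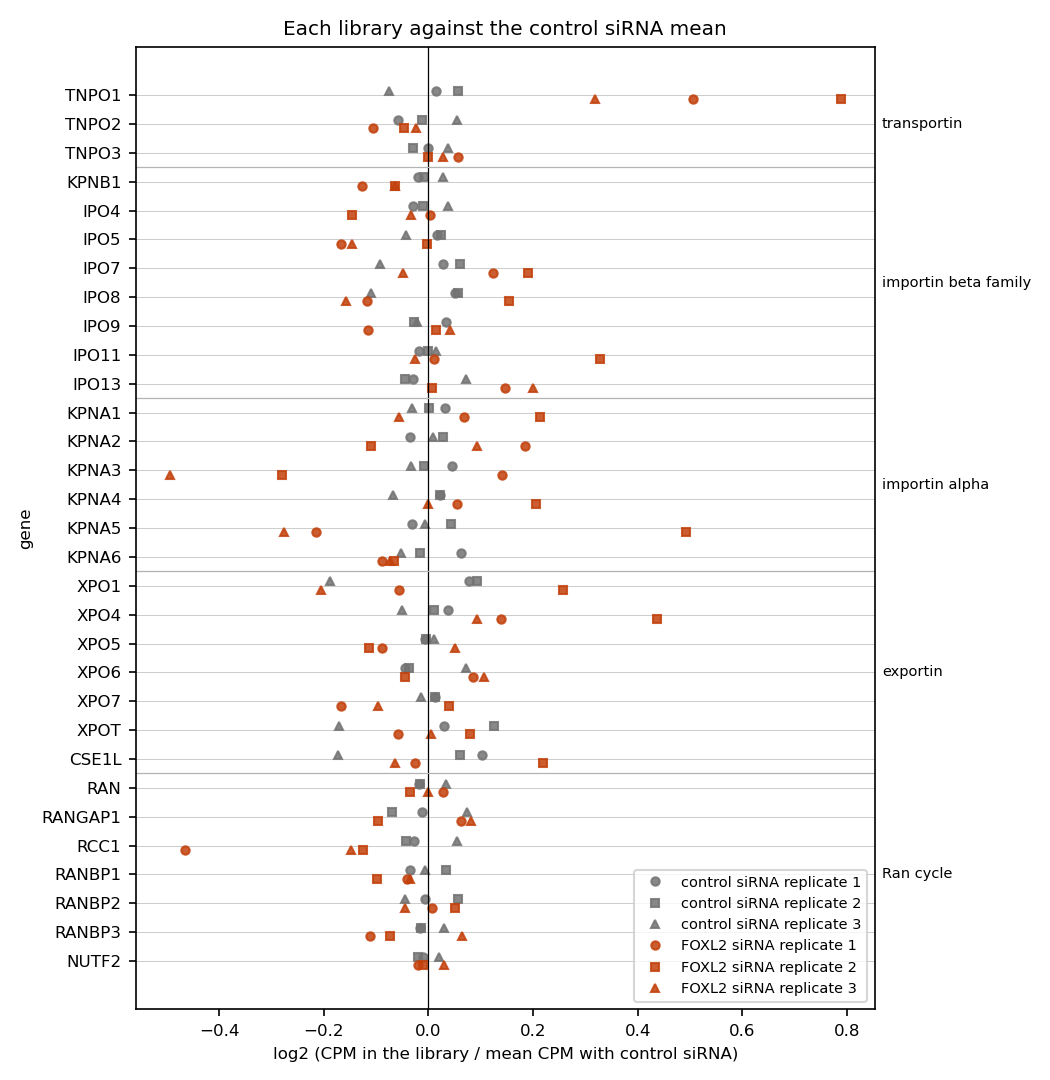
Log2 ratio of the CPM in each library to the mean of the control siRNA libraries (grey: control siRNA, orange: FOXL2 siRNA; circles, squares and triangles: replicates 1, 2 and 3) for the 31 members, grouped by role. TNPO1 and XPO4 have every orange point to the right of the grey ones and KPNB1, KPNA6 and RCC1 to the left, and squares of FOXL2 siRNA replicate 2 are the farthest out for TNPO1, IPO11, KPNA5 and XPO4.

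TNPO1 (ENSG00000083312) lies on the plus strand of chromosome 5 (72816312 to 72916733, GRCh38) with 14 annotated transcripts of 422 to 11183 nucleotides. It was at 200, 206 and 188 CPM with control siRNA and at 281, 342 and 247 CPM with FOXL2 siRNA. Every FOXL2 siRNA library was above every control siRNA library, and replicate 2 was the highest. The log2 fold change was 0.55 (SE 0.108), a ratio of means of 1.47. Without FOXL2 siRNA replicate 2 it was 0.41 (SE 0.0691). In TPM the difference was smaller: TNPO1 was at 87.2, 97.0 and 87.8 TPM with control siRNA and at 115, 112 and 102 TPM with FOXL2 siRNA, means of 90.6 ± 5.48 and 109 ± 6.93 TPM, which is 20.8% higher. The libraries still did not overlap, but replicate 2 was no longer the highest.

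TPM divides by the length that RSEM estimates for the gene, and this length differed between the libraries for TNPO1. It is the mean over the annotated transcripts, weighted by their estimated abundance. TNPO1 was at 3575, 3334 and 3274 nucleotides with control siRNA and 3764, 4974 and 3765 nucleotides with FOXL2 siRNA. The conditions did not overlap, and FOXL2 siRNA replicate 2 was far above the others. The means were 3394 ± 159 and 4168 ± 698 nucleotides, 22.8% longer with FOXL2 siRNA. Lengths at least 5% longer were found for 21.4% of all genes, and lengths that did not overlap and were longer for 6.12%. These shares were not limited to genes with more than a single annotated transcript, whose length can differ. With the effective lengths as offsets in edgeR, the log2 fold change of TNPO1 was 0.27 (SE 0.0704), and it was 0.27 without replicate 2 as well.

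Since the longest transcript of TNPO1 has 11183 nucleotides and the second longest 3028, a mean length above 3028 requires some of the longest. If the lengths of v29 are those of the deposited tables, the 11183-nucleotide transcript made up at least 6.71%, 3.75% and 3.02% of the estimated TNPO1 molecules with control siRNA. With FOXL2 siRNA the least share was 9.02%, 23.9% and 9.04%. These bounds are above the control siRNA libraries in each FOXL2 siRNA library and highest in replicate 2. A least share is not the share itself, since shorter transcripts also enter the mean length. The order of the bounds therefore does not show that the shares differed in the same way. The bounds rest on RSEM's estimated division of reads among the annotated transcripts, which was not checked here. The transcript-level estimates were not used here.

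**Figure D3:**
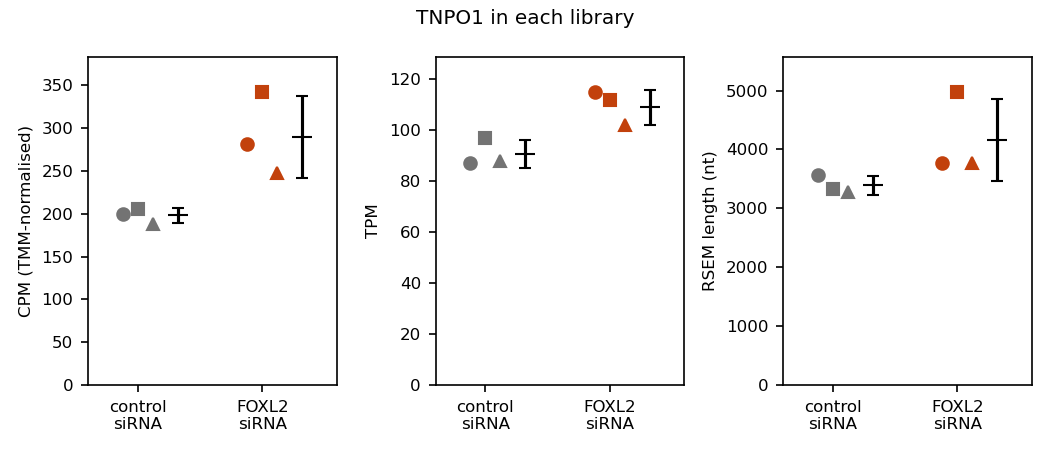
TNPO1 in each library, as TMM-normalised CPM (left), TPM (middle) and RSEM length in nucleotides (right); circles, squares and triangles are replicates 1, 2 and 3, and black bars are the mean ± SD of 3 libraries. CPM averages 198 and 290, TPM 90.6 and 109 and length 3394 and 4168 nucleotides with control and FOXL2 siRNA; replicate 2 (square) is the highest of the FOXL2 siRNA libraries in CPM and length but not in TPM.

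The paralogs of TNPO1 were close to their control level. TNPO2, which shares cargoes with TNPO1, was at 123, 127 and 133 CPM with control siRNA and at 119, 124 and 126 CPM with FOXL2 siRNA. These values overlapped, and the log2 fold change was -0.05 (SE 0.0597). TNPO3 was at 150 ± 3.48 and 153 ± 3.12 CPM, with a log2 fold change of 0.02 (SE 0.0551). The 3 transportins together were at 208, 213 and 219 TPM with control siRNA and at 237, 237 and 229 TPM with FOXL2 siRNA. The sums did not overlap, and TNPO1 contributed most of the difference.

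Of the 8 other importins of the beta family, 3 had a log2 fold change above 0 and 5 below 0, with a median of -0.03. KPNB1 was at 656, 661 and 678 CPM with control siRNA and at 609, 636 and 636 CPM with FOXL2 siRNA. All FOXL2 siRNA libraries were lower, with means of 665 ± 11.6 and 627 ± 15.7 CPM (a difference of -5.69%), and the log2 fold change was -0.08 (SE 0.0537). In TPM the order was the same, with 353, 354 and 367 against 329, 340 and 339 TPM. IPO5 was at 697, 701 and 669 CPM against 614, 688 and 623 CPM (log2 fold change -0.10, SE 0.0632). Replicates 1 and 3 were below the control siRNA libraries and replicate 2 was among them, and without replicate 2 the log2 fold change was -0.16.

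IPO13, a carrier of the exon junction components MAGOH and Y14, had the highest log2 fold change of this family. It was at 38.3, 37.9 and 41.1 CPM with control siRNA and at 43.3, 39.3 and 44.9 CPM with FOXL2 siRNA (0.12, SE 0.0758). Replicate 2 was the only FOXL2 siRNA library within the control range in CPM. In TPM it was the highest, with 20.5, 19.7 and 21.2 TPM against 22.2, 26.1 and 25.1 TPM, and the conditions did not overlap. IPO11, which imports ubiquitin-conjugating enzymes, was at 38.4, 38.9 and 39.3 CPM against 39.2, 48.8 and 38.2 CPM (log2 fold change 0.11, SE 0.0977). In the counts its difference came from replicate 2, and without that library the log2 fold change was -0.01. With the effective lengths as offsets in edgeR it was -0.01 with all libraries and 0.12 (SE 0.0911) without replicate 2. IPO11 shares exons on the same strand with KIF2A and LRRC70, so part of its reads may be assigned to either.

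The importins alpha, which link cargoes with classical signals to KPNB1, differed among themselves in sign: of the 6 tested, 4 had a log2 fold change above 0 and 2 below 0. KPNA3 was at 102, 98.3 and 96.6 CPM with control siRNA and at 109, 81.5 and 70.2 CPM with FOXL2 siRNA (log2 fold change -0.19, SE 0.137). Replicate 1 was above the control siRNA libraries and replicates 2 and 3 were below them. Pools 2 and 3 contained an siRNA that pool 1 lacked, and its part in the values of KPNA3 was not tested. Leaving out replicate 1 gave -0.38, and leaving out replicate 3 gave -0.06. KPNA4 was at 132, 132 and 124 CPM against 135, 150 and 130 CPM (log2 fold change 0.09, SE 0.0708), overlapping, with replicate 2 the highest.

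KPNA6 was at 97.2, 92.1 and 89.8 CPM with control siRNA and at 87.5, 88.9 and 88.5 CPM with FOXL2 siRNA. The conditions did not overlap, but the gap was narrow (log2 fold change -0.08, SE 0.0591), and in TPM they overlapped. KPNA2, the most abundant importin alpha, was at 453 ± 9.86 and 473 ± 48.4 CPM (0.06, SE 0.0777), and KPNA1 at 92.3 ± 1.96 and 97.5 ± 9.14 CPM (0.08, SE 0.0761). KPNA5 had few counts, at 4.20 ± 0.112 and 4.33 ± 1.37 CPM, and its libraries overlapped.

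Of the 7 exportins tested, 5 had a log2 fold change above 0 and 2 below 0, with a median of 0.01. XPO4, which exports SMAD3 and the initiation factor eIF5A and also imports SOX factors, was at 51.1, 50.2 and 48.1 CPM with control siRNA and at 54.8, 67.4 and 53.1 CPM with FOXL2 siRNA. All FOXL2 siRNA libraries were above all control siRNA libraries, with replicate 2 far above the other two. The log2 fold change was 0.23 (SE 0.0953), and 0.11 without replicate 2. In TPM, with 10.2, 9.50 and 9.27 against 10.1, 12.4 and 10.3 TPM, the conditions overlapped.

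XPO7 was at 109, 109 and 107 CPM with control siRNA and at 96.2, 111 and 101 CPM with FOXL2 siRNA (log2 fold change -0.08, SE 0.0677). Replicate 2 was above the control siRNA libraries and replicates 1 and 3 below them. XPO1, CSE1L and XPOT varied between the control siRNA libraries themselves, from 251 to 305, 205 to 248 and 295 to 362 CPM, with control siRNA replicate 3 the lowest in all 3 genes. Their log2 fold changes were 0.01 (SE 0.121), 0.05 (SE 0.0970) and 0.01 (SE 0.0808). XPO5 (-0.05, SE 0.0643) and XPO6 (0.05, SE 0.0653) overlapped between the conditions.

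In the Ran cycle, log2 fold changes lay between -0.23 for RCC1 and 0.02 for RANGAP1. RAN was at 543, 544 and 563 CPM with control siRNA and at 561, 537 and 550 CPM with FOXL2 siRNA. The libraries interleaved, at means of 550 ± 11 and 549 ± 12 CPM. NUTF2 (142 ± 2.06 and 142 ± 2.64 CPM), RANBP2 (198 ± 7.46 and 198 ± 6.49 CPM), RANGAP1 (343 ± 17.3 and 347 ± 23.1 CPM), RANBP3 (66.1 ± 1.21 and 64.4 ± 4.15 CPM) and RANBP1 (211 ± 4.98 and 203 ± 5.14 CPM) likewise overlapped.

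RCC1, the exchange factor that loads Ran with GTP, had the lowest log2 fold change of all members. It was at 102, 101 and 108 CPM with control siRNA and at 75.3, 95.4 and 93.9 CPM with FOXL2 siRNA (104 ± 3.76 and 88.2 ± 11.2 CPM). All FOXL2 siRNA libraries were below all control siRNA libraries in CPM, replicate 1 by far, whereas in TPM replicate 2 (72.2 TPM) lay above the lowest control siRNA library (71.3 TPM). The log2 fold change was -0.23 (SE 0.0926), and -0.13 without replicate 1. RCC1 shares 242 exon bases on the same strand with the snoRNA host gene SNHG3. SNHG3 held 1265 to 1333 counts with control siRNA and 1385 to 1432 with FOXL2 siRNA. These counts are not scaled to the library totals, which also differed, so they do not show a difference in its level. With the counts of both genes summed, the log2 fold change was -0.13 (SE 0.0745).

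The estimated length differed for more members than TNPO1. The mean was at least 5% longer with FOXL2 siRNA for 10 of the 31 members and at least 5% shorter for 3 (IPO4, IPO13 and XPO5), beside 21.4% and 9.12% of all genes. The conditions did not overlap for 4 longer members (TNPO1, IPO5, IPO9 and KPNA1) and for 2 shorter ones (IPO4 and XPO5), beside 6.12% and 3.08%. FOXL2 siRNA replicate 2 had the longest estimate of all 6 libraries for 13 members (41.9%), beside 29.5% of all genes. Every tested member has more than a single annotated transcript, but the shares of all genes were not limited to such genes. The length of a gene with a single transcript is fixed, so these shares are not a matched background.

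IPO9, an importin of actin and histones, was the most even of the longer members. Its length was 4632, 4763 and 4657 nucleotides with control siRNA and 5286, 5232 and 5191 nucleotides with FOXL2 siRNA. All FOXL2 siRNA libraries were longer, with little spread (4684 ± 69.2 and 5236 ± 47.5 nucleotides, 11.8% longer). Its CPM hardly differed, with 212, 203 and 204 against 191, 209 and 213 CPM (log2 fold change -0.02, SE 0.0624), and its TPM was lower in every FOXL2 siRNA library, with 70.7, 66.0 and 66.1 against 54.6, 65.0 and 62.8 TPM. Replicate 1 had the lowest TPM and also a CPM below every control siRNA library. The longest annotated IPO9 transcript has 11435 nucleotides.

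In the other longer members the difference was mostly that of replicate 2. IPO11 was at 2809, 2647 and 2409 nucleotides with control siRNA and at 2455, 4073 and 2374 nucleotides with FOXL2 siRNA. KPNA4 was at 5382, 5594 and 5228 against 5787, 7085 and 5330 nucleotides. KPNA5 was at 2602, 2304 and 2468 against 2417, 3429 and 2412 nucleotides. In each of these, replicate 2 was the longest library and replicates 1 and 3 did not both exceed the control siRNA libraries. KPNA1 was at 2144, 2215 and 2212 against 2271, 2717 and 2250 nucleotides, so that all 3 FOXL2 siRNA libraries were longer and replicate 2 was the longest. KPNA1 overlaps an antisense gene, AC083798.2, over 1377 exon bases, and the strand setting of the counting is not given in the sources used here.

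IPO7, a carrier of ribosomal proteins, was at 4257, 4440 and 4459 nucleotides with control siRNA and at 4560, 5091 and 4428 nucleotides with FOXL2 siRNA. XPOT was at 3827, 3637 and 3712 against 3798, 4456 and 3843 nucleotides. XPO4 was at 7631, 8049 and 7694 against 8094, 8771 and 7811 nucleotides. In these 3 genes the conditions overlapped and replicate 2 was the longest. IPO8, which has been tied to Argonaute import, was at 3479, 3160 and 3312 against 4187, 4039 and 3253 nucleotides. Here replicates 1 and 2 were longer than the control siRNA libraries and replicate 3 was among them.

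The shorter members were IPO4, XPO5 and IPO13. IPO4, which imports histones and the vitamin D receptor, was at 2768, 2819 and 2792 nucleotides with control siRNA and at 2615, 2575 and 2664 nucleotides with FOXL2 siRNA. XPO5 was at 4485, 4296 and 4555 against 3923, 4166 and 4156 nucleotides. All FOXL2 siRNA libraries of both genes were shorter, and their TPM were higher in all 3 (54.4, 54.3 and 55.1 against 58.2, 57.5 and 56.2 TPM for IPO4, and 32.6, 34.2 and 31.6 against 34.8, 34.6 and 36.5 TPM for XPO5), although their CPM overlapped. IPO13 was at 2945, 3047 and 2976 against 3030, 2548 and 2816 nucleotides, with replicate 1 among the control siRNA libraries. IPO4 shares 3470 exon bases on its own strand with AL136295.4. That gene held 38.6 and 64.4 counts on average with control and FOXL2 siRNA, not scaled to library size. XPO5 shares 348 exon bases with POLR1C on the opposite strand.

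**Figure D4:**
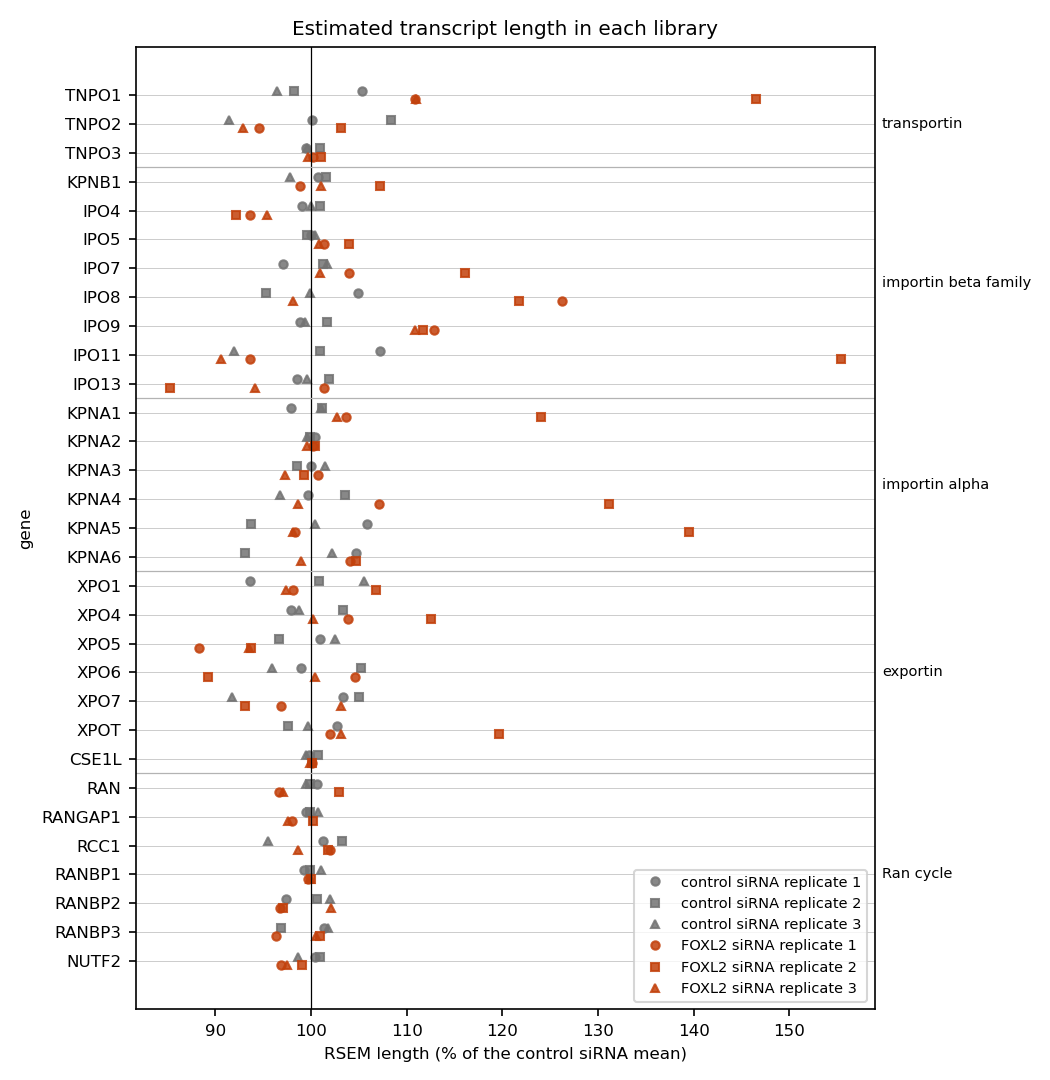
RSEM length in each library as a percentage of the control siRNA mean (grey: control siRNA, orange: FOXL2 siRNA; circles, squares and triangles: replicates 1, 2 and 3) for the 31 members. The square of FOXL2 siRNA replicate 2 is the rightmost point in 13 members, far out for TNPO1 (4974 nucleotides), IPO11 and KPNA5, while IPO9 is longer in all 3 FOXL2 siRNA libraries and IPO4 and XPO5 shorter.

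Taking the effective lengths into the model changed the sign of the log2 fold change for 10 of the 31 members (32.3%), beside 14.8% of all genes, and moved it by at least 0.1 for 10 members, beside 23.5%. The members whose sign changed were TNPO2, IPO4, IPO11, KPNA1, KPNA4, KPNA5, XPO5, XPOT, RAN and NUTF2. Their largest values in either fit were 0.11 for IPO11 from the counts and -0.11 for KPNA5 with offsets. A value near 0 changes sign more easily, and 24 of the 31 members were under 0.1 in absolute value from the counts, beside 43.6% of all genes. The part of this in the share of sign changes was not tested. The shares of all genes again were not limited to genes with more than a single annotated transcript. IPO13 moved from 0.12 to 0.25 (SE 0.0809), IPO8 from -0.04 to -0.22 (SE 0.107) and IPO9 from -0.02 to -0.16 (SE 0.0684). KPNB1 (-0.08 and -0.09), RCC1 (-0.23 and -0.22) and KPNA3 (-0.19 and -0.15) were hardly touched. With these offsets edgeR called 0 members, beside 0.281% of all genes (0, beside 1.10%, without FOXL2 siRNA replicate 2), limma on log2(TPM + 1) called 0 members, beside 0.0911%, and DESeq2 called TNPO1 alone, beside 2.80%. In TPM, 8 members did not overlap, beside 18.4% of all genes: 6 did not overlap on the higher side (TNPO1, TNPO3, IPO4, IPO13, XPO5 and NUTF2) and 2 on the lower (KPNB1 and IPO9), beside 9.30% and 9.07% of all genes. TNPO1 and KPNB1 were the members that did not overlap, in the same direction, in both CPM and TPM.

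**Figure D5:**
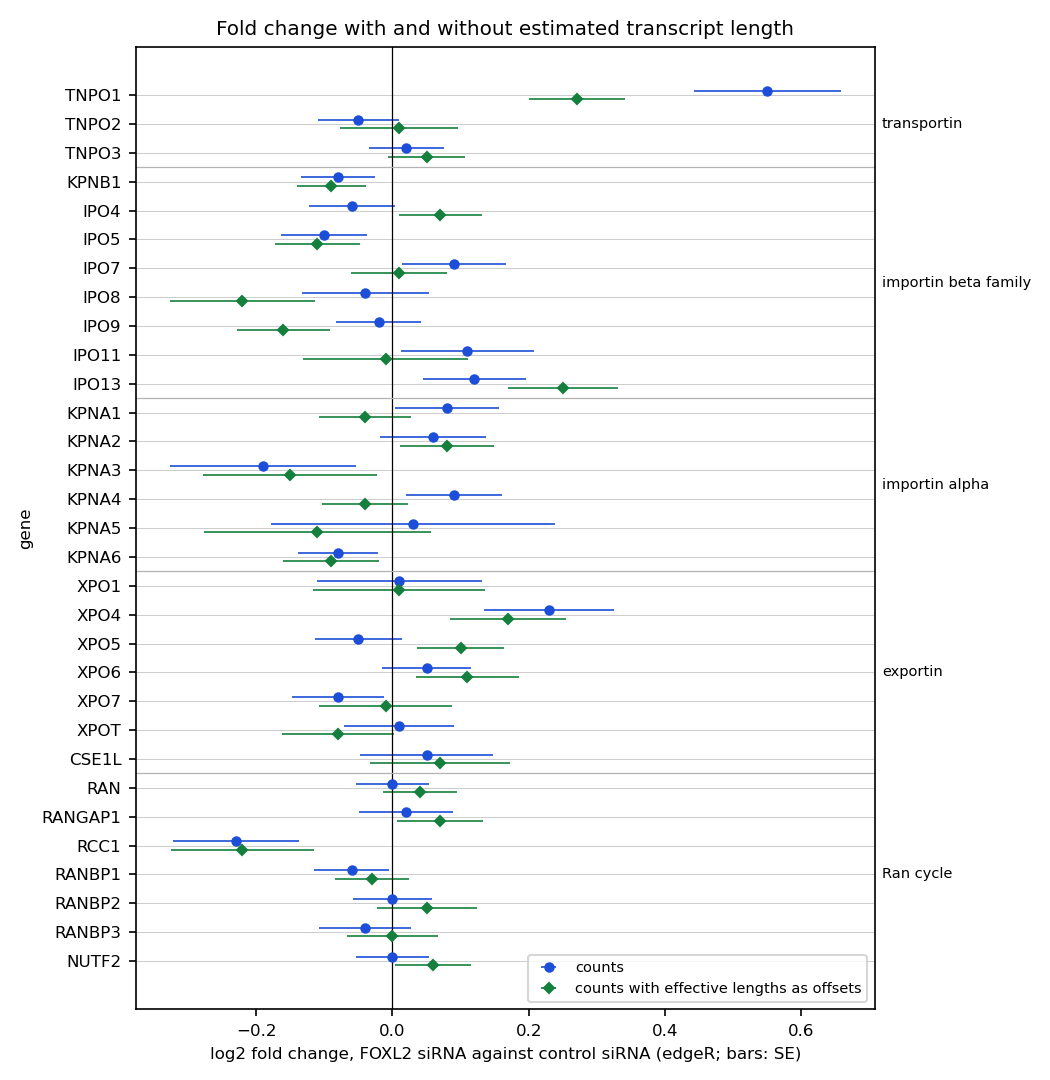
Log2 fold change of FOXL2 siRNA against control siRNA in edgeR, with the SE as bars, for the 31 members: blue circles from the counts, green diamonds with RSEM's effective lengths as offsets. TNPO1 moves from 0.55 to 0.27, IPO8, IPO9 and IPO13 move away from 0, and KPNB1 and RCC1 stay in place.

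The spread of the members within a condition was larger with FOXL2 siRNA. The SD of log2 CPM had a median of 0.0379 with control siRNA and 0.0975 with FOXL2 siRNA, beside 0.0883 and 0.134 over all genes. It was larger with FOXL2 siRNA for 26 of the 31 members, beside 66.8% of all genes. Replicate 2 was the FOXL2 siRNA library farthest from the control mean for 16 members, beside 44.6%. KPNA5, KPNA3, XPO1 and TNPO1 had the widest spread with FOXL2 siRNA. TNPO2, KPNA6, RANBP2, XPOT and TNPO3 were the members whose SD was smaller with FOXL2 siRNA than with control siRNA.

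Around the carriers, no gene of the lists of nucleoporins, mRNA export, transportin cargoes, other Ran system genes and proliferation passed edgeR's adjusted threshold. Of 30 nucleoporins, the proteins of the pore itself, 19 had a log2 fold change above 0 and 11 below 0. At an unadjusted p under 0.05 there were 4, beside 13.5% of all genes, and none was called by DESeq2. CPM did not overlap for 6 on the higher side (9.97% of all genes) and for 3 on the lower (10.6%). NUP42 was the highest, at 20.8, 22.0 and 20.0 CPM against 26.9, 26.7 and 24.9 CPM (0.32, SE 0.0776). NUP54 was the lowest, at 35.8, 38.7 and 34.5 against 22.0, 39.9 and 24.6 CPM (-0.34, SE 0.192), where replicate 2 was above the control siRNA libraries and the other FOXL2 siRNA libraries were below them. Without replicate 2, edgeR called 1 nucleoporin higher (POM121) and 1 lower (NUP54), beside 3.61% of all genes.

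Of 16 genes of mRNA export, 12 had a log2 fold change below 0, beside 48.6% of all genes, and 7 did not overlap on the lower side, beside 10.6%, with 0 at an unadjusted p under 0.05 and 0 DESeq2 calls. ENY2, of the TREX-2 complex, was the highest (0.07, SE 0.0680) and GLE1, which activates the helicase DDX19 at the pore, the lowest (-0.24, SE 0.113). The 14 cargoes of transportins reported here, among them the hnRNP A proteins, EWSR1 and TAF15, all had a log2 fold change below 0, beside 48.6% of all genes, with a median of -0.06. Of these, 5 did not overlap on the lower side (10.6% of all genes), 3 had an unadjusted p under 0.05 (13.5%), and DESeq2 called 2, HNRNPA0 and HNRNPD (3.00%). Without FOXL2 siRNA replicate 2, edgeR called 3 on the lower side, HNRNPA0, HNRNPD and HNRNPF (3.61%). HNRNPA0 was the lowest, at 150, 145 and 150 CPM against 107, 132 and 119 CPM (-0.31, SE 0.0796), and ELAVL1 the highest, at 114 ± 0.448 and 113 ± 2.02 CPM (-0.01, SE 0.0544).

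The remaining genes of the Ran system, RANBP6, RANGRF and RANBP3L, were above 0, with a median of 0.30, and overlapped between the conditions. RANBP3L was the highest (0.35, SE 0.303) but held at most 32 counts, and RANBP6 the lowest (0.23, SE 0.112). Of 12 genes of proliferation, 7 were above and 5 below 0. CPM did not overlap for 1 on the higher side (9.97% of all genes) and for 4 on the lower (10.6%). CDK1 was the highest (0.19, SE 0.0908) and MCM2 the lowest (-0.26, SE 0.0724), 4 had an unadjusted p under 0.05 (13.5% of all genes), and DESeq2 called MKI67, MCM2 and TYMS on the lower side (3.00%). Without FOXL2 siRNA replicate 2, edgeR called 1, MKI67, which was lower (3.61%). Proliferation genes are given because KPNA2, RAN and RCC1 are known to be high in dividing cells, and their part in the values of the members was not tested.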

How the data were processed

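RNA of 6 libraries (3 FOXL2 siRNA, 3 control siRNA, grouped by the labels) was sequenced. Per the submitters' processing notes, the authors used STAR 2.7.6a, Picard 2.8.1, RSEM 1.3.1, R 3.6.3 and DESeq2 1.26.0. The labels name a mouse build although the genes carry human identifiers, so which human build and annotation were used is unknown here. The deposited tables hold RSEM's expected count (an estimated count, not normalized; 66.8% to 69.1% of values above 0 were whole), TPM as scaled by the authors' RSEM run, and a length and effective length per gene and library. FPKM was not used. Symbols were matched for 60401 of 60671 identifiers.

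Expected counts were rounded, filtered with filterByExpr (15663 genes, with 99.9% of the counts), normalized by TMM and compared with edgeR 4.0.16 (quasi-likelihood test, R 4.3.3, Benjamini-Hochberg adjustment over all genes, threshold 0.05). The SE of an edgeR log2 fold change is its absolute value divided by the square root of the test's F statistic. It therefore also rests on variance estimates that draw on all genes. CPM are TMM-normalised, and 0.5 was added before logs. The alternatives were DESeq2 1.42.0, DESeq2 size factors, no filter, effective lengths as offsets, limma 3.58.1 on log2(TPM + 1) or log2(TPM + 0.1) for genes with a mean of at least 1 TPM, the replicate number as a block, and each library left out. A fold change on the log2(TPM + 1) scale understates that of low genes. The older quasi-dispersion estimate, sums over genes that share reads, and offsets or DESeq2 without FOXL2 siRNA replicate 2 were added after the data were seen. The test was first tested on simulated data. Within each condition, no pair of libraries agreed within sampling noise (chi-square per degree of freedom between 2.37 and 28.3).

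Members and lists were chosen with earlier results of these data known. Every library's value is given for TNPO1, TNPO2, KPNB1, RAN, the 5 highest and 5 lowest log2 fold changes, members whose CPM did not overlap and members whose length differed by at least 5%, and of other lists the highest and lowest gene is named. Genes outside this rule that were called in a list were named after their values were seen. Of the transportin cargo list, 1 gene is not reported here. Coordinates and sequences are from GENCODE v29 on GRCh38, which held 58453 of the identifiers. Of 34818 genes with a single transcript found there, 33090 had the same length in the deposited tables. Figures were drawn with Python 3.11.15, numpy 2.4.6, pandas 2.3.3 and matplotlib 3.10.9.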

Additional observations from a re-analysis of the deposited data

How the results depend on the processing

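The number of members called depended on the test and on FOXL2 siRNA replicate 2. It was 0 with edgeR, 1 with DESeq2, without the filter on low counts and with DESeq2 and effective length offsets, 3 with DESeq2 without FOXL2 siRNA replicate 2, and 0 to 1 when each library was left out of edgeR. The number of genes called over the whole table was 40, and 350 with DESeq2, 344 with DESeq2 and offsets, 70 without the filter, 13 with limma on TPM at either pseudocount, 177 with offsets in edgeR without FOXL2 siRNA replicate 2, 803 with DESeq2 without it, and 2 to 579 when each library was left out, the highest without that library. The log2 fold change of TNPO1 was 0.55, 0.27 wherever length entered (offsets in edgeR, in DESeq2 and in edgeR without FOXL2 siRNA replicate 2, and limma on TPM), and 0.41 to 0.65 when each library was left out. The median of the members was 0.002, 0.013 with offsets in edgeR, 0.019 with limma on TPM, -0.024 with DESeq2 without FOXL2 siRNA replicate 2, and -0.025 to 0.010 with each library left out. The 5 members whose CPM did not overlap (20.5% of all genes) became 8 in TPM (18.4%) and 5 to 12 with each library left out. The 12 were found without FOXL2 siRNA replicate 2, where the share of all genes rose as well, to 35.3%. The log2 ratio of TNPO1 lengths, 0.28, became 0.15 to 0.35 with each library left out. The cause of these shifts was not tested, except that the offsets and TPM bring in the estimated length.

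Same-numbered libraries of the conditions did not deviate together (r -0.0301, 0.0473 and 0.0478 across genes) and not every library correlated best with its own number (control siRNA replicates 1 and 3 did not), so the numbers were not taken as pairs. With the replicate number as a block, edgeR called 11 genes and 0 members, the log2 fold change of TNPO1 was 0.54, and the median of the members and the log2 ratio of TNPO1 lengths were 0.002 and 0.28.

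For the other members, 459 of the alternative log2 fold changes lay within the spread between libraries of the reported value and 53 beyond it. Precision was limited by 3 libraries per condition, by 1 library that stood apart and by pools that differed in composition, and for KPNA5 and RANBP3L by low counts.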
